A study of Drosophila melanogaster with 7 samples.

Results

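HP1c-only regions are stretches of the Drosophila melanogaster genome where HP1c was called by chromatin immunoprecipitation and sequencing (ChIP-Seq) and none of 4 companion proteins was called. They were chosen by pooling the called regions of HP1c, Dsk2, WOC, ROW and Z4 and chaining all that shared at least 1 bp into 13044 merged regions. Chains that held HP1c alone were kept. There were 777 of them, each a single HP1c region, out of 2711 HP1c regions, so 28.7% of the HP1c list belonged to this class. The members were therefore selected on the calls themselves, and their lack of overlap is a definition and not a result.

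All libraries came from S2 cells, an established line derived from Drosophila embryos, with no treatment or genotype that differs between them. Polyclonal rabbit antibodies were used for HP1c, Dsk2, WOC and ROW and a guinea pig antibody for Z4, with 1 library per protein. HP1c and Dsk2 had an input library of their own, and WOC, ROW and Z4 had another. Each protein was represented by 1 list of region positions, with no height, score or read number, so depth is unknown and no p-value is given. The 95% intervals are exact (Clopper-Pearson, or binomial order statistics for medians); they cover the counting of regions only and treat regions as independent, which closely spaced regions are not.

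HP1 proteins carry a chromodomain, which binds methylated lysine 9 of histone H3, and a chromoshadow domain, through which they pair and recruit other proteins. HP1c is the Drosophila family member known from euchromatin, where it forms a complex with the zinc-finger proteins WOC and ROW. Dsk2 is a ubiquilin, a protein that binds ubiquitin. Z4 is a zinc-finger protein known from the interbands of polytene chromosomes, the decondensed stretches between bands.

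The first question was whether HP1c-only regions stood alone or lay beside sites of the other proteins. Of the 777 members, 503 (64.7%, interval 61.3 to 68.1%) had a region of another list within 500 bp, measured from edge to edge, and 274 lay farther away. That share depended on the ROW list and on the length of the lists. It was 48.9% with the ROW list left out, where 828 regions were HP1c-only. When each other list was limited to as many of its widest regions as HP1c has, it was 31.4% of 996. With Dsk2, WOC or Z4 left out it was 65.7%, 62.5% or 63.3%. As a background, the HP1c list was rotated along each chromosome arm in equal steps, which keeps the spacing of its regions, and only rotated regions that overlapped no other list were counted. Of these, 7.35% lay within 500 bp on average, and 11.3% at the rotation with the highest share. That rotation and the other 2 highest (10.8% and 10.0%) shifted the list by only 1 or 2 thousandths of an arm. The observed share was thus 8.81 times the rotated mean. Rotation does not preserve the uneven density of sites along an arm, and the part of that density in the ratio was not tested.

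Members were close even within this limit. The median distance of the near members was 130 bp (120 to 144 bp), with quartiles of 74 and 221.5 bp. Distances of 1 to 100 bp were found for 179 members (23.0%), against 1.83% of rotated regions, and the next 100 bp held another 172 (22.1%, against 1.59%). The share fell with distance to 41 members (5.28%) between 300 and 400 bp and 28 (3.60%) between 400 and 500 bp, where rotated regions had 1.30% and 1.23%. Between 500 and 1000 bp the observed share of 8.88% was still above the rotated mean of 5.33%, although the rotated maximum was 8.81%. Beyond 1000 bp observed shares were below rotated means in every distance class. Only 63 members (47 up to 50 kb and 16 beyond) were more than 10 kb from any other list, which is 6.05% and 2.06%, against 36.3% and 13.1% of rotated regions.

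**Figure D1:**
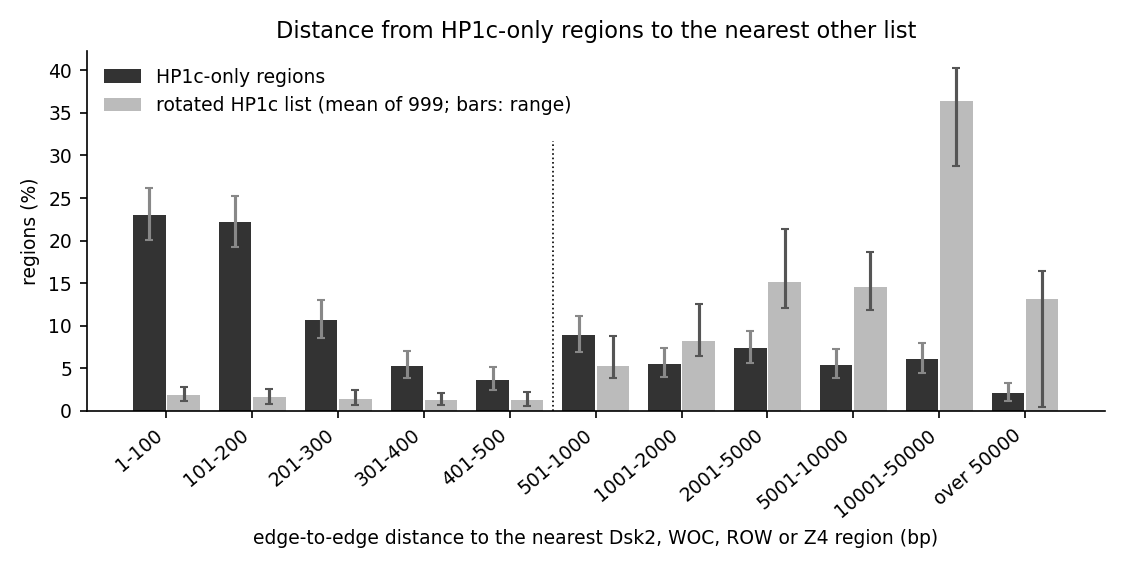
Share of HP1c-only regions (dark bars, exact 95% intervals) and of rotated HP1c regions without overlap (grey bars, mean, with the range over rotations) by edge-to-edge distance in bp to the nearest Dsk2, WOC, ROW or Z4 region; the dotted line marks 500 bp. The dark bars are tallest in the first 2 classes (23.0% and 22.1%), and the tallest grey bar is that between 10 and 50 kb (36.3%).

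The 3 members just inside it lay on 3R from 5754366 to 5754601 (236 bp wide, 500 bp from ROW), on 2L from 1651110 to 1651256 (147 bp wide, 498 bp from ROW) and on X from 18176517 to 18176615 (99 bp wide, 498 bp from ROW). Just outside it were regions on 3R from 7474638 to 7474739 (102 bp wide, 506 bp from Dsk2), on 3L from 12483218 to 12483316 (99 bp wide, 519 bp from Dsk2) and on 2R from 9106755 to 9106879 (125 bp wide, 526 bp from ROW). ROW was nearest for all 3 inside the limit and for 1 of the 3 outside it, and the widths on both sides overlap. Positions are those of the dm3 genome build.

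By comparison, 47.3% of the 5404 merged regions that held 1 of the other 4 lists alone had another list within 500 bp. The HP1c-only share of 64.7% was close to that of Dsk2-only regions (64.8%, 58.6 to 70.7%, 164 of 253). It was above the shares of ROW-only (49.5%, 47.8 to 51.2%), Z4-only (40.3%, 37.2 to 43.6%) and WOC-only regions (40.2%, 36.7 to 43.7%), whose intervals do not reach it. Relative to rotation of each list against its own partners, the ratios were 8.81 for HP1c-only, 9.04 for Dsk2-only, 7.46 for ROW-only, 6.06 for Z4-only and 5.79 for WOC-only regions. HP1c and Dsk2 share an input library, and the input and the protein cannot be told apart in this order.

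The next question was which protein lay nearest. ROW was the nearest list for 319 of the 503 near members (63.4%, 59.0 to 67.6%). Dsk2 was nearest for 66 (13.1%, 10.3 to 16.4%), Z4 for 61 (12.1%, 9.40 to 15.3%) and WOC for 57 (11.3%, 8.70 to 14.4%), with no ties. ROW has the most regions (8999), with a median width of 245 bp, below the 352 bp of Z4. Rotated regions within 500 bp of a list also had ROW nearest most often, at 51.2% on average. The observed 63.4% lay inside the range over rotations (40.1 to 64.2%). The shares of Dsk2 (rotated 7.64%, range 2.07 to 16.0%) and WOC (rotated 14.0%, range 5.48 to 22.2%) were also inside theirs. A rotation left fewer near regions to count (on average 7.35% of 2523 without overlap, against 503 observed), which widens these ranges. The exact intervals of ROW and Dsk2 lie above their rotated means, and that of WOC includes its mean. Only Z4 lay outside its range. It was nearest for 12.1% of near members, against 26.9% of rotated regions, and below the lowest rotation (17.6%). This was not particular to HP1c-only regions. Z4 was below the lowest rotation also for near Dsk2-only (7.32%, lowest 18.7%), WOC-only (7.10%, lowest 22%) and ROW-only regions (46.7%, lowest 54.7%).

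Counted against all members instead, every list was nearest within 500 bp more often than under rotation. The ratio was 15.1 for Dsk2 (8.49% of members, against 0.562% of rotated regions), 10.9 for ROW (41.1% against 3.76%), 7.13 for WOC (7.34% against 1.03%) and 3.98 for Z4 (7.85% against 1.97%). The leading list thus depends on the measure and not on the denominator. ROW led by share and Dsk2 by the ratio to rotation under both denominators. Of near members, the ratio was 1.72 for Dsk2 and 1.24 for ROW. WOC-only regions had the same leaders, ROW by share (53.5% of near regions) and Dsk2 by ratio (2.27 of near regions). In Z4-only regions ROW led by both (83.9% and 1.35), and in Dsk2-only regions WOC did (48.8% and 2.75). For ROW-only regions Z4 led by share (46.7%) and HP1c by ratio (2.01).

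**Figure D2:**
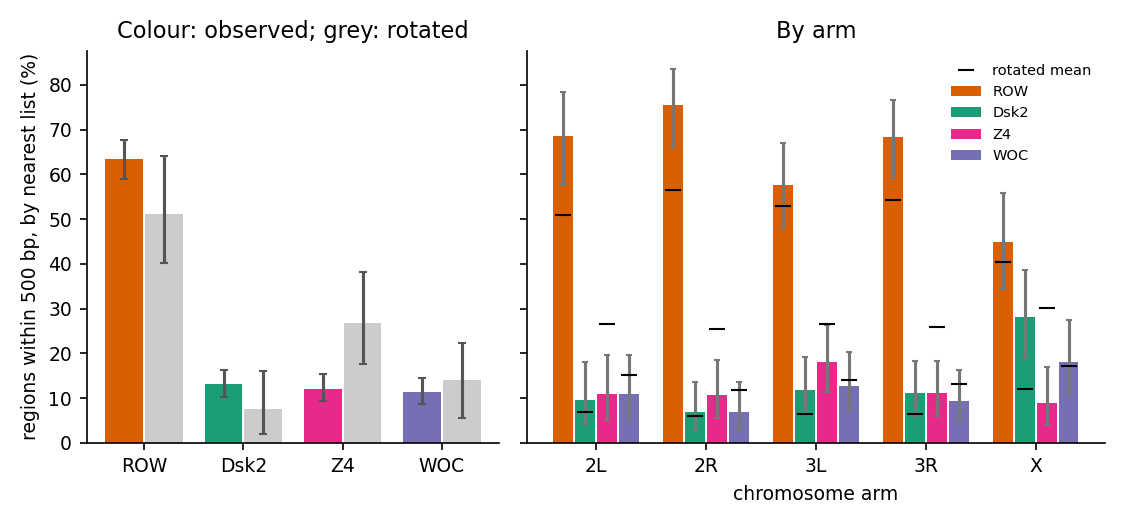
Nearest list of the HP1c-only regions within 500 bp of another list, as a percentage of these regions, over all chromosomes (left, coloured bars, beside grey bars for rotated regions with their range) and by arm (right, with black dashes for the rotated mean on that arm). Coloured bars carry exact 95% intervals; ROW is nearest for 63.4% of regions overall and for 44.9% on X, where Dsk2 reaches 28.1%.

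The median distance to the nearest list was lowest where that list was Dsk2, although its interval overlaps the others. Members with Dsk2 nearest had a median distance of 89.5 bp (64 to 130 bp), against 138 bp (123 to 152 bp) for ROW, 138 bp (104 to 190 bp) for WOC and 125 bp (101 to 190 bp) for Z4. The neighbouring Dsk2 regions were narrow, with a median of 141.5 bp (92 to 240 bp), against 216 bp in the whole Dsk2 list, which the interval includes. The neighbouring WOC regions had a median of 144 bp (76 to 192 bp), below the 205 bp of the whole WOC list. Neighbouring ROW regions were slightly wider than the list, at 284 bp (258 to 336 bp) against 245 bp, and 15 of the 319 (4.70%) were over 2 kb, against 4.08% of all ROW regions. Broad ROW domains were thus about as frequent among the neighbours as in the list.

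Several lists were often close at once. Of the 777 members, 192 had 1 list within 500 bp, 190 had 2, 66 had 3 and 55 had all 4. The most frequent combination among the near members was ROW alone (142 members, 28.2%), followed by ROW with Z4 (131 members, 26.0%) and by all 4 proteins (55 members, 10.9%). Dsk2 with WOC came next, with 32 members (6.36%). By single lists, ROW lay within 500 bp of 407 members (52.4%), Z4 of 253 (32.6%), WOC of 174 (22.4%) and Dsk2 of 156 (20.1%). The rotated means were 4.74%, 3.83%, 2.73% and 2.08%.

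The merged region that held the nearest neighbour was also read. It contained ROW alone for 160 near members (31.8%, against 24.5% of rotated near regions) and ROW with Z4 for 102 (20.3%, against 16.2%). Both shares lie inside the range over rotations (14.3 to 33.5% and 8.25 to 29.4%), while their exact intervals (27.8 to 36.1% and 16.8 to 24.1%) lie above the rotated means. A merged region with all 5 proteins was the neighbour of 42 (8.35%), against 7.46% of rotated regions. HP1c itself was part of the neighbouring merged region for 63 near members (12.5%, 9.76 to 15.7%), against 13.5% under rotation. The interval of that share includes the rotated mean, but the observed and rotated shares are not like for like. HP1c regions were never closer than 301 bp to each other, and rotated regions were under no such limit. The same holds for neighbours with all 5 proteins. WOC was part of the neighbour for 186 (37.0%, 32.7 to 41.4%), against 46.6% under rotation, and Z4 for 233 (46.3%, 41.9 to 50.8%), against 57.5%; both values lie inside the range over rotations (33.7 to 58.2% and 45.3 to 67.5%). ROW was part of the neighbour for 74.8% (70.7 to 78.5%) of near members, against 54.0% (47.9 to 60.0%) of far members and 68.2% of rotated near regions (range 57.0 to 78.3%).

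Some members had regions of the same list on both sides, most often ROW. A ROW region lay within 500 bp on the left and another on the right of 150 members (19.3%, 16.6 to 22.3%), against 0.542% of rotated regions and at most 1.04%. For Z4 this held for 40 members (5.15%, against 0.161% of rotated regions), and for Dsk2 and WOC for 17 each (2.19%, against 0.0672% and 0.0959%). The ratios to rotation were 35.6 for ROW, 32.6 for Dsk2, 32.0 for Z4 and 22.8 for WOC, so ROW stood out in number more than in ratio. The 150 members between ROW regions were wider than the other 353 near members, with medians of 148.5 bp (128 to 169 bp) and 108 bp (100 to 120 bp). Walking outward from the edge of a member, ROW coverage was highest at 300 bp, where it reached 20.3% of positions, against 1.05% for rotated regions. It was still 14.0% at 1000 bp and 9.59% at 3000 bp (rotated 2.06% and 2.78%). Z4 peaked at 450 bp with 9.91%, and Dsk2 and WOC peaked at 700 bp, with 6.05% and 6.18%. All 4 curves start at 0 by the choice of members.

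**Figure D3:**
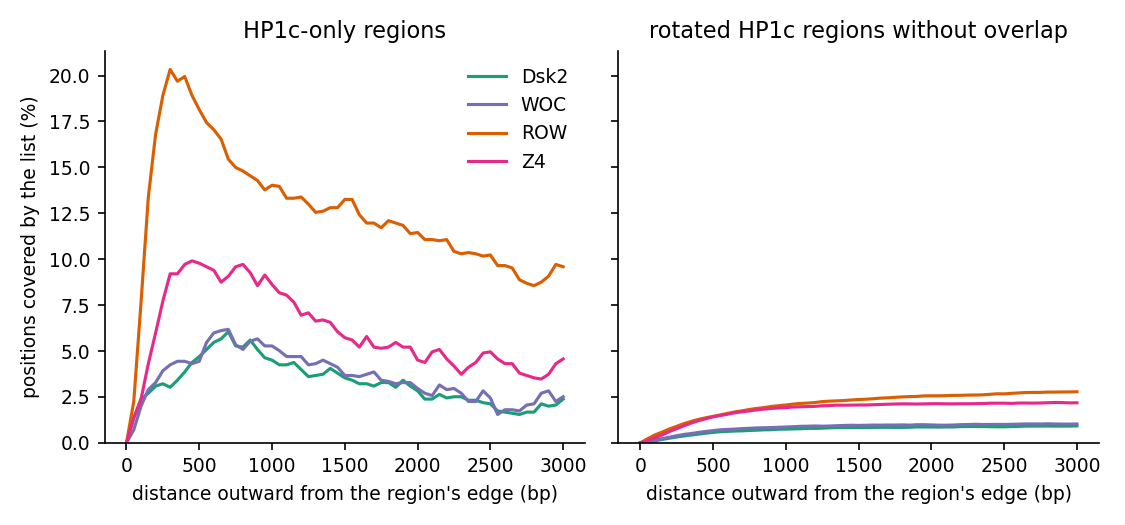
Percentage of positions covered by Dsk2, WOC, ROW and Z4 regions at increasing distance (bp) outward from both edges of the HP1c-only regions (left) and of rotated HP1c regions without overlap (right), on the same vertical scale. ROW peaks at 20.3% at 300 bp on the left, while no curve on the right passes 3%.

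ROW also lay beside HP1c regions outside this class. It was within 500 bp of 52.4% (48.8 to 55.9%) of the HP1c-only regions, against 67.5% (64.8 to 70.2%) of the 1174 HP1c regions that overlapped another list but not ROW. ROW on both sides was found for 19.3% of the HP1c-only regions and for 26.1% (23.7 to 28.8%) of these shared regions. Z4 was within 500 bp of 32.6% of HP1c-only regions and of 41.3% of the shared HP1c regions without Z4. For WOC the values were 22.4% of HP1c-only and 46.5% of shared regions, and for Dsk2 20.1% and 28.9%. HP1c-only regions thus had each list nearby less often than shared HP1c regions lacking that list. The intervals do not overlap for any of the 4, although those for Dsk2 nearly meet (17.3 to 23.1% for HP1c-only and 23.4 to 34.9% for shared regions). The shared regions already overlap another list, which the HP1c-only regions by definition do not.

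Widths were compared next, the lists holding no measure of signal. HP1c-only regions had a median width of 110 bp (102 to 119 bp), against 131 bp (120 to 139 bp) for the 1934 HP1c regions shared with another list. The difference lay in the wide regions. Only 42 members (5.41%, 3.92 to 7.24%) were at least 300 bp wide, against 406 shared regions (21.0%, 19.2 to 22.9%). Very narrow calls under 50 bp were no more frequent among the members (26.3%, 23.2 to 29.5%) than among shared regions (30.1%, 28.1 to 32.2%). Among regions of a single list, those under 50 bp made up 26.3% of HP1c-only, 73.1% of Dsk2-only, 57.5% of WOC-only, 41.6% of ROW-only and 18.3% of Z4-only regions. The medians were 110 bp for HP1c-only, 28 bp for Dsk2-only, 40 bp for WOC-only, 98 bp for ROW-only and 205 bp for Z4-only regions, so HP1c-only regions lay between ROW-only and Z4-only regions by both measures. A wide region has more room to overlap another list, so a shortage of wide members follows in part from how they were chosen.

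Near members had a median width of 118 bp (108 to 130 bp), against 97 bp (85 to 111 bp) for far members. The difference of 21 bp had an interval, from the ends of the intervals of both medians, of -3 to 45 bp, which includes 0. Widths of at least 300 bp were found in 33 near members (6.56%) and 9 far members (3.28%). Regions under 50 bp made up 23.3% (19.6 to 27.2%) of near members and 31.8% (26.3 to 37.6%) of far members. The difference was not the same on every arm: the near median minus the far median was 34.5 bp on 3R, 33 bp on 2L, 11 bp on X, 5 bp on 3L and -7 bp on 2R. With distance, the median went through 136 bp (114 to 153 bp) within 100 bp of another list, 110.5 bp up to 500 bp, 95 bp up to 2 kb and 113 bp up to 10 kb. It was lowest, at 67 bp (47 to 97 bp), for the 63 members beyond 10 kb, none of which was 300 bp wide.

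**Figure D4:**
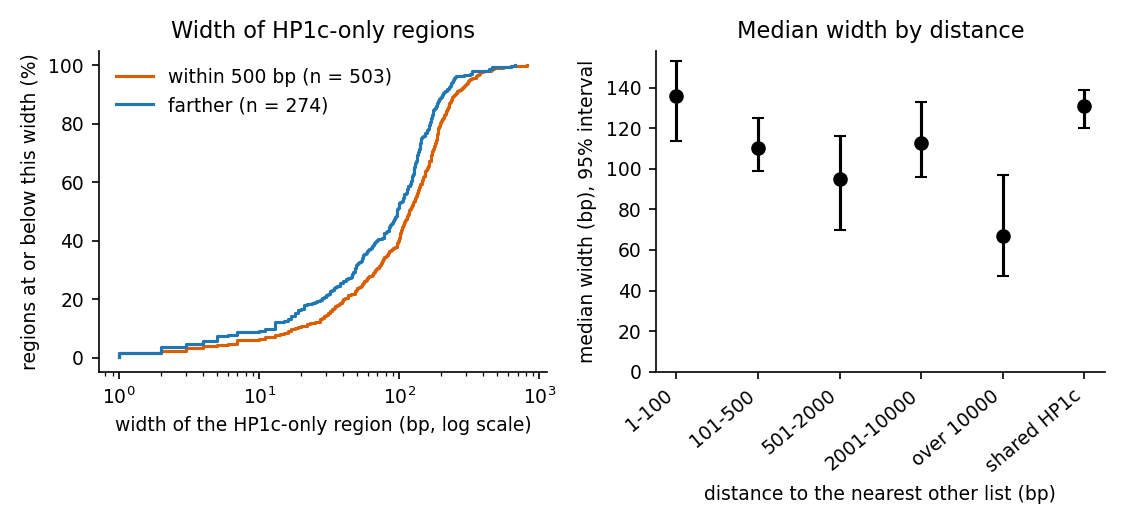
Cumulative distribution of the widths (bp, log scale) of HP1c-only regions within 500 bp of another list and farther (left), and median width in bp with its 95% interval by distance class, with the shared HP1c regions last (right). The curve of the far regions lies to the left of the near one over most of its course (medians 97 and 118 bp), and the class beyond 10 kb has the lowest median, 67 bp.

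The widest near member lay on 3R from 27538935 to 27539752 (818 bp), 190 bp from a 237 bp merged region of ROW alone and 4297 bp from the nearest WOC region. The next lay on X from 19047517 to 19048321 (805 bp) and had Dsk2 at 451 bp, WOC at 561 bp, Z4 at 898 bp and ROW at 994 bp. Another, on 3L from 14748138 to 14748762 (625 bp), lay 33 bp from Z4 and 50 bp from ROW, beside a merged region of all 5 proteins that was 1043 bp wide. The fourth and the fifth lay on 2L, from 11806833 to 11807385 (553 bp, with ROW at 4 bp and Z4 at 28 bp) and from 13550431 to 13550920 (490 bp, with Z4 at 324 bp). These 5 differ in their nearest list, which was ROW for 2, Z4 for 2 and Dsk2 for 1.

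Among far members the widest lay on 2R from 5842568 to 5843243 (676 bp), with WOC nearest at 1762 bp. It was followed by a region on 3R from 17431021 to 17431651 (631 bp), with ROW nearest at 4810 bp, and by a region on 3L from 21007659 to 21008115 (457 bp, ROW at 2920 bp). The other 2 of the 5 widest, on 2R from 4535073 to 4535513 (441 bp) and on 2L from 13060138 to 13060577 (440 bp), had small ROW regions at 533 and 624 bp, of 3 and 33 bp. ROW was the nearest list for 4 of these 5, and for 124 of all 274 far members (45.3%, 39.3 to 51.4%). WOC was nearest for 56 far members (20.4%), Z4 for 54 (19.7%) and Dsk2 for 38 (13.9%), with 2 ties. The far members had a median distance of 2910 bp (2399 to 3688 bp).

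The member farthest from the other proteins lay on X from 12097568 to 12097740 (173 bp), 174255 bp from Z4 and 266670 bp from the next HP1c region. Another on X, from 7090157 to 7090290 (134 bp), was 85695 bp from Z4. On 2R a pair of members 625 bp apart, from 15713226 to 15713253 (28 bp) and from 15713878 to 15714042 (165 bp), lay 98227 and 98879 bp from WOC. The remaining member of the 5 farthest, a 31 bp region on the unplaced sequence Uextra from 17518307 to 17518337, was 144321 bp from Dsk2. Members that also lay far from any other HP1c region, unlike the pair on 2R, were few. Only 91 members (11.7%, 9.54 to 14.2%) were more than 5 kb from every region of all 5 lists, HP1c included, and 53 (6.82%) were more than 10 kb away.

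Clustering along the chromosome was compared between near and far members. Another HP1c region of any kind lay within 2 kb of 223 near members (44.3%, 39.9 to 48.8%), against 65 far members (23.7%, 18.8 to 29.2%), a difference of 20.6 percentage points. That difference lay in shared neighbours. The closest HP1c region within 2 kb was a shared one for 140 near members (27.8%, 24.0 to 32.0%), against 20 far members (7.30%, 4.52 to 11.0%). It was another HP1c-only region for 83 near members (16.5%, 13.4 to 20.0%), against 45 far members (16.4%, 12.2 to 21.4%), which are nearly equal shares. A shared HP1c region overlaps another list and so brings that list close to the member, so the difference follows at least in part from the distance that divides the members. The total difference was 21.1 points within 1 kb (32.4% and 11.3%) and 20.9 points within 5 kb (58.4% and 37.6%). The median distance to the next HP1c region was 2506 bp (2087 to 3674 bp) for near members and 9640.5 bp (7116 to 12139 bp) for far members. Shared HP1c regions had a median of 4076 bp, and 39.6% (37.4 to 41.8%) had another HP1c region within 2 kb, an interval that overlaps that of the near members.

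Long runs of HP1c-only regions were absent. With neighbours at most 2 kb apart, 630 members stood in runs of their own, 120 formed 60 runs of 2, and 27 formed 9 runs of 3. The most compact run of 3 lay on 2L from 16520224 to 16521548, with members 136, 31 and 16 bp wide, all near: the first was 60 bp from ROW, and the others 127 and 63 bp from Dsk2. A run on 3L from 881032 to 882945 held members at 100, 374 and 1247 bp from ROW. Another run on 3L, from 19888750 to 19890784, had members at 1436, 624 and 282 bp from a single Z4 region of 4 bp. That Z4 region lay inside the run, between the members at 624 and 282 bp. These runs were ranked by number and then by compactness.

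**Figure D5:**
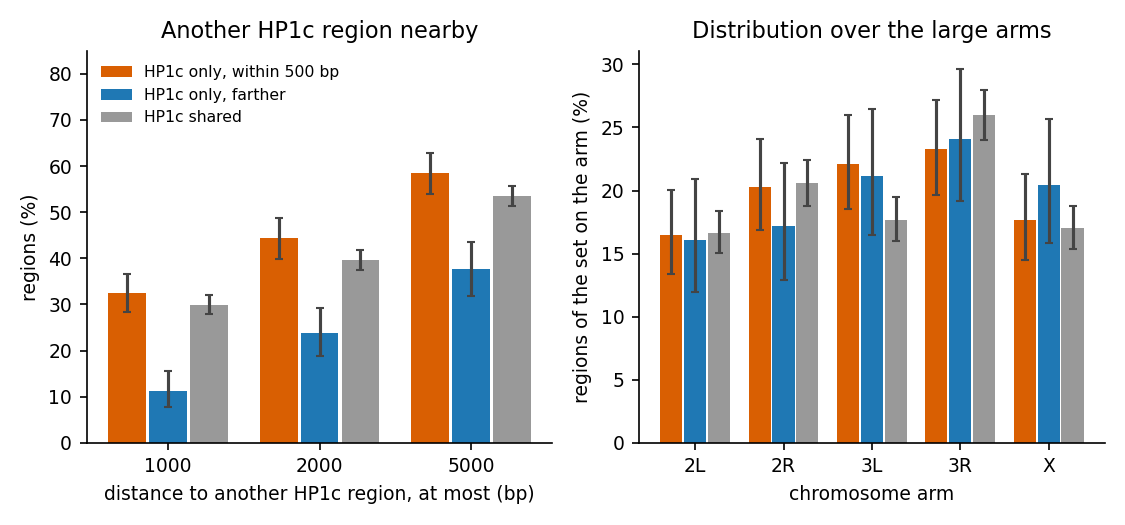
Left: percentage of HP1c-only regions within 500 bp of another list, HP1c-only regions farther away and shared HP1c regions that have another HP1c region within 1, 2 or 5 kb. Right: percentage of each of the 3 sets on each large chromosome arm; bars carry exact 95% intervals, and the far regions are lowest at each distance on the left (23.7% within 2 kb, against 44.3% of near regions), while the intervals of near and far regions overlap on all arms on the right.

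Arms were compared last. Near and far members were spread over the large arms in a similar way, and no difference exceeded 3.13 points. On X lay 17.7% (14.5 to 21.3%) of near and 20.4% (15.8 to 25.7%) of far members. The shares were 20.3% of near and 17.2% of far members on 2R, 23.3% and 24.1% on 3R, 22.1% and 21.2% on 3L, and 16.5% and 16.1% on 2L. Relative to shared HP1c regions, members were more frequent on 3L, with 21.8% (18.9 to 24.8%) against 17.7% (16.0 to 19.5%), and the intervals overlap. As a share of the HP1c regions of an arm, HP1c-only regions ranged from 26.7% on 3R and 27.2% on 2R through 28.3% on 2L and 30.6% on X to 33.1% on 3L. Their density per Mb was 7.05 on 2R, 6.90 on 3L, 6.56 on 3R, 6.47 on X and 5.53 on 2L.

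The nearest list varied more between arms than the number of members did. ROW was nearest for 75.5% (66.0 to 83.5%) of near members on 2R, 68.7% on 2L, 68.4% on 3R and 57.7% on 3L, but for 44.9% (34.4 to 55.9%) on X. Dsk2 was nearest for 28.1% (19.1 to 38.6%) of near members on X, against 6.86 to 11.7% on the other 4 arms. These were 25 members on X and 7 to 13 on each other arm. The intervals of 3L overlap those of X for ROW (47.9 to 67.0%) and, barely, for Dsk2 (6.39 to 19.2%). Rotation within each arm gave part of the same order, since ROW was nearest for 40.5% of rotated near regions on X and for 50.9 to 56.4% on the other arms, and Dsk2 for 12.0% on X and 6.02 to 6.98% elsewhere. ROW regions were also less dense on X (63.1 per Mb) than on the other arms (68.6 to 89.2 per Mb). Related to all members of an arm, ROW was nearest within 500 bp for 27.6% on X, which is 9.10 times the rotated share, against ratios of 10.0 to 12.7 on the other arms, and Dsk2 for 17.2%, which is 19.2 times, against 9.48 to 16.8 times.

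Members were scarce outside the large arms. Chromosome 4, the small autosome rich in heterochromatin, held 3 of the 10 HP1c regions there as HP1c-only. The near one lay from 577887 to 578019 (133 bp), with ROW at 101 bp and Z4 at 205 bp. The far ones were a 170 bp region from 522268 to 522437, 14806 bp from Z4, and a call of a single base at 1260880, 3075 bp from ROW. The unplaced, heterochromatin and mitochondrial sequences held 35 HP1c regions, of which 1 was HP1c-only, the Uextra region named above, and 34 were shared.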

How the data were processed

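Each of the 5 immunoprecipitations is represented by a list of region starts and ends as deposited, a unit other than counts, with no score. Per the series' design text the calls were made against input. The submitters' processing notes name CASAVA 1.8, FastQC 0.9.3, Bowtie 0.12.5 and dm3; for the peak caller, its threshold and duplicates, nothing is given in the sources used here. Both ends were taken as part of a region, since 50 HP1c regions start and end at 1 position. Within a list no regions were closer than 301 bp, and whether closer calls had been joined was not tested. Distance is start minus end between facing edges. Rotation used 999 equal offsets per arm, with arm ends at the outermost positions of any list, and no random draws; coverage was read in 50 bp steps over evenly thinned offsets. The merging, distance and rotation functions were tested on simulated data. Regions were named by a fixed rule: the 5 widest near and far, the 5 farthest, the 3 largest runs, the 3 on each side of 500 bp, and all on chromosome 4 and unplaced sequences. The members and lists were chosen with earlier results of these data known. Genes and sequences were not used here, since the gene table at hand is of a later build than dm3. Python 3.11.15, NumPy 2.4.6, pandas 2.3.3, SciPy 1.17.1 and matplotlib 3.10.9 were used.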

Additional observations from a re-analysis of the deposited data

How the results depend on the processing

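Of 73 recomputed values, 58 stayed within the interval of the reported value (counts within 1.5 times). All that moved belonged to the share near another list (5 of 10 stayed), its ratio to rotation (7 of 12) and the share with ROW nearest (6 of 11). None changed sign, but only the differences in clustering, width and X share could do so. The reported intervals of the width and X differences include 0, so staying within them is a weak check. The number of members ran between 605 and 996, the difference in clustering between 16.1 and 28.5 points, the width difference between 14 and 37 bp (7 of 10 intervals include 0), and the X difference between -6.59 and -0.978 points. The share of members near another list, 64.7% as reported, was 48.9% with the ROW list left out, 31.4% with only the widest 2711 regions of each other list, 60.5% with regions of at least 50 bp, 51.0% within 250 bp and 73.6% within 1000 bp. Its ratio to rotation, 8.81 as reported, was 7.33, 8.13, 9.38, 12.3 and 5.81 under those settings. The share with ROW nearest, 63.4% as reported, was 67.8% without WOC, 74.0% without Z4 and 53.4% with equal-length lists. It was 68.0% with regions of at least 50 bp and 51.5% by midpoints. By midpoints a wide region of any list counts as farther, and the reason for the lower share was not tested. Removing a list or shortening lists leaves fewer neighbours by construction. Each protein had 1 library, so no replicate could be left out, and no paired analysis was possible because no protein had a second library. The unknown depth limits what the lack of a call can mean.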

Other observations

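Gaps between consecutive regions of a list were also examined for the HP1c regions inside them. Of 3358 ROW gaps of 301 to 1000 bp, 165 (4.91%, 4.21 to 5.70%) held at least 1 HP1c-only region and 347 (10.3%) at least 1 shared HP1c region. Among ROW gaps, the share with an HP1c-only region was 3.58% (2.77 to 4.54%) up to 500 bp, 6.48% (5.30 to 7.83%) from there to 1000 bp and 5.27% up to 2 kb. For Z4 it was 2.47% of 1866 gaps of 301 to 1000 bp, for WOC 2.46% of 855 and for Dsk2 3.56% of 675. A region fits into a gap only if it overlaps no region of that list, so shared regions counted here overlap a different list. For ROW the pools also differ in size, with 777 HP1c-only and 1174 shared regions. No rotated share is given for gaps, and a longer gap has more room for a region, so these shares are descriptions only.

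The nearest other list lay on the side of lower coordinates for 255 near members and on the other side for 248 (50.7% on the lower side, 46.2 to 55.1%). The far members had it on the lower side in 151 of 274 cases (55.1%, 49.0 to 61.1%).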
